A study of Drosophila melanogaster with 2 samples.

Results

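The genes described here are 10 core members of the Polycomb and trithorax groups of *Drosophila melanogaster*, taken by name (ph-p, ph-d, Pc, Psc, E(z), Su(z)12, pho, brm, trx and ash1) from 13968 annotated protein-coding genes. They were examined for binding of CG11696, a predicted zinc finger protein, by chromatin immunoprecipitation and sequencing (ChIP-seq). The flies carried an insertion targeting CG11696 and expressed the protein fused to eGFP, an enhanced green fluorescent protein, and chromatin of whole embryos aged 0 to 24 h was precipitated through the tag. There were 2 biological replicates in 1 group, with no other condition or stage, and all cell types of the embryo were mixed. The labels do not say what drives the fusion or whether untagged CG11696 remained. All 10 genes were found in the annotation, and all 10 are transcribed from the minus strand.

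Polycomb group proteins keep developmental genes such as the Hox genes silent, and trithorax group proteins keep them active. Polycomb repressive complex 1 (PRC1) compacts chromatin and ubiquitinates histone H2A, Polycomb repressive complex 2 (PRC2) methylates lysine 27 of histone H3, and the Pho repressive complex (PhoRC) binds DNA at Polycomb response elements. Trithorax group members include chromatin remodellers and histone methyltransferases that oppose this silencing.

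CG11696-eGFP had 12 peaks at 9 of the 10 genes, and pho alone had none. These were counted in the conservative list of the authors, which ranks the peaks of the pooled reads by how well they hold between the 2 replicates and keeps those with an irreproducible discovery rate (IDR) of at most 0.01. A peak was assigned to a gene when its summit lay in the gene body or within 2 kb of it. By the same rule 22.4% of all protein-coding genes had a peak, and 32% of the 3768 genes that were no shorter than the shortest and no longer than the longest of the 10. The strength of a peak is given as the authors' signal value, in units of their peak caller. Replicate values come from each replicate's own list of ranked peaks and are on a lower scale than the pooled value, so pooled values are compared only with pooled values. With 1 group and 2 replicates no test was made, and the read depth is unknown. The 10 genes were chosen with earlier results of these data known, so counts set beside genome-wide shares are a description only.

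The DNA under the conservative summits was rich in A and T. Windows reaching 50 bp to either side of a summit are shown on the plus strand of dm6, from the RefSeq copy of that assembly. They cover the strong peaks at ph-p, Pc, brm and ash1, the E(z) promoter and the stretch between ph-p and ph-d. Also shown are the listed trx peak and the strongest of the trx peaks missing from the thresholded list. Capitals mark unbroken runs of at least 6 A or T.
ph-p, upstream peak, chrX:2137859-2137959: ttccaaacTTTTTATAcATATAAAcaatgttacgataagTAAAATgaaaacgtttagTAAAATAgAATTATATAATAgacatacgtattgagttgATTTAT
ph-p, strongest peak, chrX:2137314-2137414: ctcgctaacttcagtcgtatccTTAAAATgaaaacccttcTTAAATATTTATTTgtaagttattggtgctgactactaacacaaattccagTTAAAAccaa
ph-d, chrX:2124041-2124141: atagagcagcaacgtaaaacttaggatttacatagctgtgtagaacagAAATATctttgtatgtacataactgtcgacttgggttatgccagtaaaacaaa
Pc, chr3L:21304526-21304626: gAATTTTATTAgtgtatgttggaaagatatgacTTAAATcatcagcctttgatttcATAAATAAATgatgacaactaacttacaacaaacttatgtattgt
E(z), chr3L:10637972-10638072: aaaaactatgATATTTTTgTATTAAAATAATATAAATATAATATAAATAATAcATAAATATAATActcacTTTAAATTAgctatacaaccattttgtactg
brm, chr3L:15982956-15983056: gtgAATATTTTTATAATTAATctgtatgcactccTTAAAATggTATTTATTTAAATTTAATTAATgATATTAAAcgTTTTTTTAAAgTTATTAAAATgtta
trx, listed peak, chr3R:14278069-14278169: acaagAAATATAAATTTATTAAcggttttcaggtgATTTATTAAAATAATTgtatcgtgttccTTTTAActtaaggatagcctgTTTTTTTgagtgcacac
trx, peak missing from the thresholded list, chr3R:14283829-14283929: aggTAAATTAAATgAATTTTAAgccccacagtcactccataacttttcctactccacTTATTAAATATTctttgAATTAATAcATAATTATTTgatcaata
ash1, chr3L:19590569-19590669: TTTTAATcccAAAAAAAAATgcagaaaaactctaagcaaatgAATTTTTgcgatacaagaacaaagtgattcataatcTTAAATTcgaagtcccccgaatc

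The 12 windows, 4 of them at ph-p, held a median of 72.3% A and T (65.3 to 85.1). The median was 66.3% around the other 3131 conservative summits (quartiles 57.4 and 72.3, range 30.7 to 88.1). Around 91996 summits of ranked peaks that did not pass it was 54.5%. E(z) had the highest share, 85.1%, with an unbroken A/T run of 33 bp, and brm came next with 84.2% and a run of 22 bp. The lowest share, 65.3%, was at ph-d and at the ph-p summit farthest inside the gene. Runs of at least 6 bp, marked above in capitals, were common: all 12 windows had one, as did 90.1% of other conservative and 70% of sub-threshold windows. A run of at least 10 bp was present in 10 of the 12 windows (83.3%), against 50.6% of other conservative and 25.5% of sub-threshold windows. The windows were not matched for peak strength, and the member peaks were stronger, with a median pooled value of 315.6 against 107 for all conservative peaks. Whether the A and T content goes with peak strength was not tested. In the profile of A and T around the summits, the members reached 75.4% at 30 bp before the summit, where other conservative peaks had 64.3%, and sub-threshold peaks had 54.9% next to the summit.

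**Figure D1:**
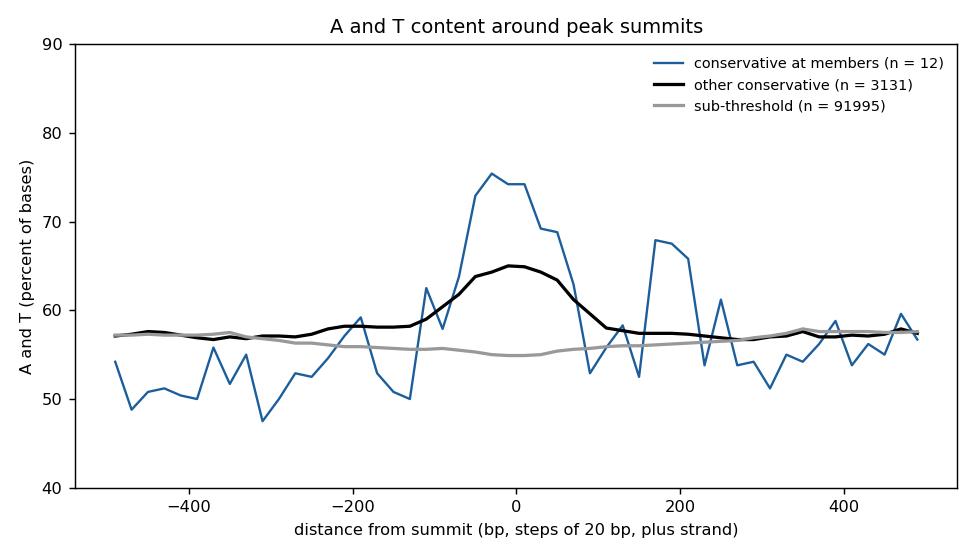
Share of A and T (percent of bases, steps of 20 bp) by distance from the summit for the 12 conservative peaks at the 10 genes, the other 3131 conservative peaks and the sub-threshold ranked peaks. The members' line rises to 75.4% just before the summit and averages 12 windows, the other conservative peaks reach 65.0% just before it and the sub-threshold peaks dip to 54.9%.

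A set of 11 short motifs was sought on both strands of the same windows. GAGAG, the core bound by GAGA factor, and GCCAT, the core bound by Pho, were each in 0 of the 12 windows, against 11.2% and 13.7% of other conservative windows and 12.3% and 22.1% of sub-threshold windows. TATAAA was in 5 of 12, against 18.8% of other conservative and 9.36% of sub-threshold windows, and it lay in windows of ph-p, E(z), brm and trx. TATAAA consists of A and T alone. The member windows were richer in A and T than the others, and no motif share, including those of GAGAG and GCCAT, was corrected for base composition. With 12 windows, a count of 0 was not tested against these shares. CGATA, which TATCGATA contains, was in 3 of 12 windows, against 12.4% of other conservative and 10.7% of sub-threshold ones. TGAGTG, the core bound by Zeste, was in 1 of 12, a trx window, against 4.66% of other conservative and 5.24% of sub-threshold windows. The other 6 motifs, the DRE element TATCGATA, the repeat GTGTGT, the promoter motif GGTCACAC, the E-box CACGTG, the GATA factor motif AGATAA and the Zelda motif CAGGTA, were in 0 of 12, against 0.607 to 8.4% of other conservative windows. Such matches describe letters in a window and do not show which factor binds.

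ph-p (FBgn0004861, chrX:2126210-2138371), one of the 2 polyhomeotic genes, which encode a PRC1 subunit with a SAM domain, was the most densely bound of the 10. It had 4 conservative summits, all in the first 3906 bp of the gene, and 1.12% of protein-coding genes had 4 or more. The strongest (chrX:2137229-2137489) had a pooled signal value of 902.3, rank 34 of 3143 peaks. Its replicate values were 444 and 466 (455 ± 15.7, mean ± SD, n = 2). It lay in the first intron, 509 bp from the nearest ph-p transcription start site (TSS), and in the replicates' own lists the summit was 494 and 496 bp away, so that it falls on either side of the 500 bp used here to call a promoter peak.

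The next ph-p peak (chrX:2137779-2138034) was 462 bp inside the most upstream TSS and had a pooled value of 415.1, with 214 and 213 in the replicates (213.6 ± 0.679). The other 2 lay in introns, 2157 and 1262 bp from the nearest ph-p TSS. The farther one (chrX:2134337-2134550) had a pooled value of 364.4 and replicate values of 186 and 180 (183 ± 4.52). The nearer one (chrX:2135188-2135531) was the weakest at ph-p, with a pooled value of 117.1 and replicate values of 51.7 and 63.9 (57.8 ± 8.64). All 4 were in the thresholded lists of both replicates, and within each peak the replicates differed by less than the replicate means of any 2 of the peaks did.

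ph-d (FBgn0004860, chrX:2115727-2123286), the neighbouring copy of the same gene, had a single conservative peak, in the stretch between the 2 genes (chrX:2123919-2124262), 805 bp upstream of the ph-d TSS. Its pooled value was 149.5, rank 960, and its replicate values were 56.0 and 86.8 (71.4 ± 21.8). Replicate 1 held it in its ranked list with an IDR score of 789, under the authors' limit of 830, so that its thresholded list lacked it. A second ph-d peak, 36 bp from the TSS, was in 1 thresholded list, the optimal list of the series (chrX:2123078-2123421, pooled value 76.09, replicate values 28.0 and 33.1). The sequence under the ph-p and ph-d summits is not shared between the copies: the best match of any of these windows in the other gene's region had 43.6 to 48.5% identical bases. None of the 52 overlapping 50-mers of any member window occurred elsewhere in the genome.

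**Figure D2:**
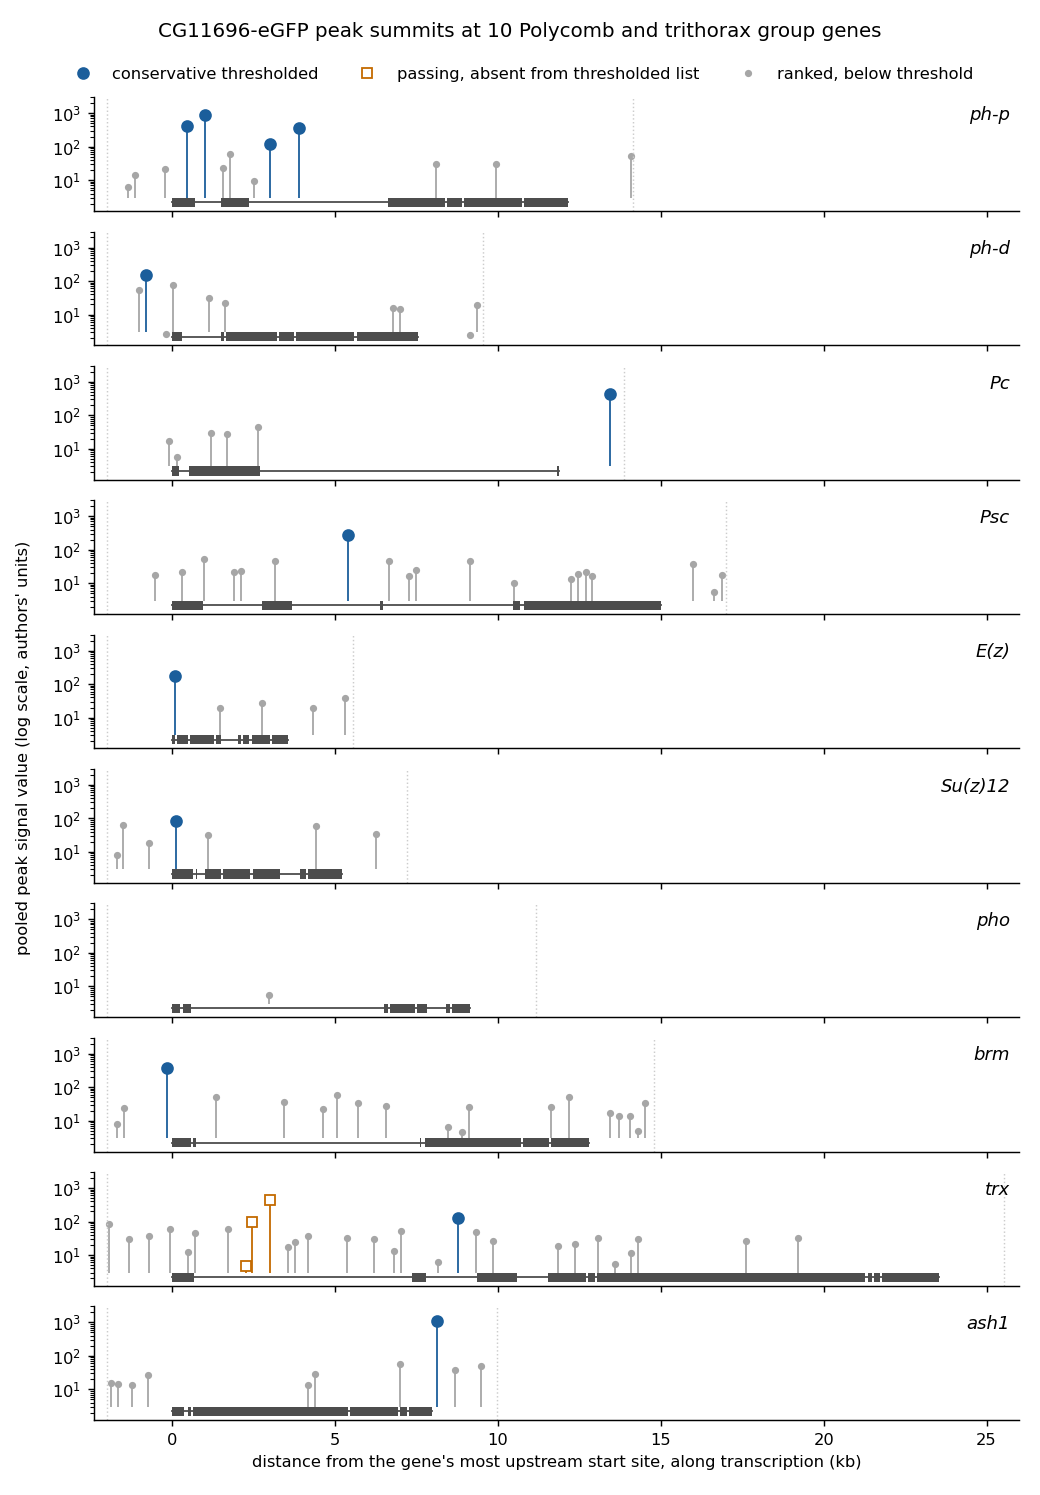
Peak summits along the 10 genes, drawn in the direction of transcription: x, distance from the most upstream start site (kb), y, pooled signal value (log scale), with exons as boxes and the 2 kb limits dotted. ph-p holds 4 conservative peaks (blue), the other genes with a peak hold 1 each, trx has 3 passing peaks that the thresholded list lacks (orange squares), and pho has a single ranked peak (grey).

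Pc (FBgn0003042, chr3L:21306138-21318020), the chromodomain subunit of PRC1 that reads methylated lysine 27 of histone H3, had its peak outside the gene. The summit (chr3L:21304474-21304664) was 1562 bp past the annotated end of Pc and 82 bp from the TSS of the next gene, CG11309, and it lay inside that gene. Its pooled value was 422.6, rank 189, with 203 and 223 in the replicates (213 ± 13.9). At the Pc TSS itself the strongest ranked peak had a pooled value of 17.1 and an IDR score of 21. In the reference genome 76.6% of the Pc gene body is an inserted roo transposable element of 9101 bp, and none of the 6 ranked peaks at Pc lay inside it.

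Psc (FBgn0005624, chr2R:12965997-12980994), a PRC1 subunit with a RING finger, had its peak in its second intron, 5073 bp from the nearest Psc TSS (chr2R:12975501-12975663). The pooled value was 266.8, rank 381, and the replicate values were 152 and 121 (137 ± 21.7). Both replicates held it in their thresholded lists. The strongest Psc peak below the threshold was 643 bp from the nearest Psc TSS, with a pooled value of 54.4 and an IDR score of 635. The ranked peak nearest to a Psc TSS, 21 bp from the inner of its 2 start sites, had a pooled value of 21.9.

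Both PRC2 genes among the members were bound close to their own start, and both share that start region with a gene on the other strand. E(z) (FBgn0000629, chr3L:10634575-10638130), the histone methyltransferase of the complex, had its summit 108 bp inside its TSS and 124 bp from that of Cnep1r2 (chr3L:10637850-10638193). The pooled value was 174.9, rank 772, with 70.7 and 97.7 in the replicates (84.2 ± 19.1). Su(z)12 (FBgn0020887, chr3L:19918242-19923462), a zinc finger subunit needed for PRC2 activity, had the weakest member peak, 142 bp inside its TSS and 351 bp from that of Pfdn6, which encodes a prefoldin chaperone subunit (chr3L:19923148-19923491). Its pooled value was 86.18, rank 2093, and its replicate values were 51.2 and 34.7 (43.0 ± 11.6).

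The Su(z)12 promoter peak was not in the thresholded list of replicate 2, where its IDR score was 249. That replicate had another summit within 2 kb of Su(z)12, 1599 bp upstream of it and 118 bp from the TSS of Grasp65, with a signal value of 29.1 in replicate 2 and 28.5 in replicate 1. The count of members with a summit in the thresholded lists of both replicates, 7 of 10 against 14.3% of protein-coding genes, therefore includes Su(z)12 through different peaks.

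pho (FBgn0002521, chr4:1172469-1181628) encodes the zinc finger protein that gives PhoRC its DNA binding, and it lies on chromosome 4. Its window of 13.2 kb held 1 ranked peak, with a pooled value of 5.64 and an IDR score of 21, and no thresholded list had a summit there. Transposable element insertions make up 48.8% of the pho gene body, and the single ranked peak lay inside one. The low count is shared by the chromosome: its 80 protein-coding genes had 17.7 ranked summits per 100 kb of gene body and flank, against 76 for all protein-coding genes, and 0.429 conservative summits per 100 kb against 2.72. Whether reads could be placed in these insertions as well as elsewhere was not tested.

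Among the trithorax genes, brm (FBgn0000212, chr3L:15970082-15982869), the ATPase of the Brahma (SWI/SNF) remodelling complex, was bound between its own start and that of Arl1, a small GTPase of the Golgi. The summit was 137 bp upstream of brm and 129 bp from the Arl1 TSS (chr3L:15982906-15983102). The pooled value was 372.1, rank 225, with 184 and 196 in the replicates (190 ± 8.29). A further brm peak was in the optimal list and the thresholded list of replicate 1, in an intron of brm that also holds CG17029 (chr3L:15977622-15977965). Its pooled value was 58.05, and its replicate values of 48.1 and 24.2 differed more than those of any conservative member peak, by -0.99 in log2 of replicate 2 over replicate 1.

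trx (FBgn0003862, chr3R:14263358-14286903) encodes the founding histone methyltransferase of the trithorax group. Its listed peak lay in an intron 8784 bp from the TSS (chr3R:14277947-14278290), with a pooled value of 131.3, rank 1165. The replicate values were close, 69.9 and 65.3 (67.6 ± 3.28), yet replicate 2 gave it an IDR score of 178 and left it out of its thresholded list.

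The strongest trx peak was not in the conservative thresholded list. In the ranked list, 3 peaks in the first intron of trx passed the limit of 830, each with a score of 1000, and were missing from the thresholded lists of the series and of both replicates. The strongest (chr3R:14283790-14283993, 3024 bp from the TSS) had a pooled value of 430.5 and would rank 177 among the conservative peaks. Its replicate values were 161 and 265 (213 ± 73.6), each with an IDR score of 1000. The next (chr3R:14284259-14284602) had a pooled value of 99.15 with 45.2 and 55.8 in the replicates (50.5 ± 7.49). Its replicate IDR scores were 917 and 311, so that in replicate 2 it did not reach the limit of 830. The last overlapped this second peak, had a pooled value of 4.83 and matched the same peak in each replicate. In this order, the summit windows of the 3 missing peaks held 74.3, 54.5 and 66.3% A and T. Of the 10 members, 1 thus had such a missing peak, against 0.566% of protein-coding genes. There were 84 on the chromosomes used, of which 54 were on 3R. Between the nearest kept summits on either side lay 13413 bp with no kept peak. The file descriptions name 1 further source file for the thresholded lists that they do not name for the ranked lists. They do not say what it holds, and its part in the absence was not tested.

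At the trx TSS itself a ranked peak 50 bp away had a pooled value of 60.7, with 29.4 and 27.5 in the replicates, and an IDR score of 596, which did not pass.

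ash1 (FBgn0005386, chr3L:19590773-19598755), a histone methyltransferase that acts on lysine 36 of histone H3, had the strongest peak of all 10 genes, outside its gene body. The summit (chr3L:19590485-19590731) was 154 bp past the end of ash1 and 95 bp from the TSS of the neighbouring gene CG14100. Its pooled value was 1072.53, rank 20 of 3143, and its replicate values were 519 and 559 (539 ± 28.5). No ranked peak had its summit within 500 bp of the ash1 TSS.

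**Figure D3:**
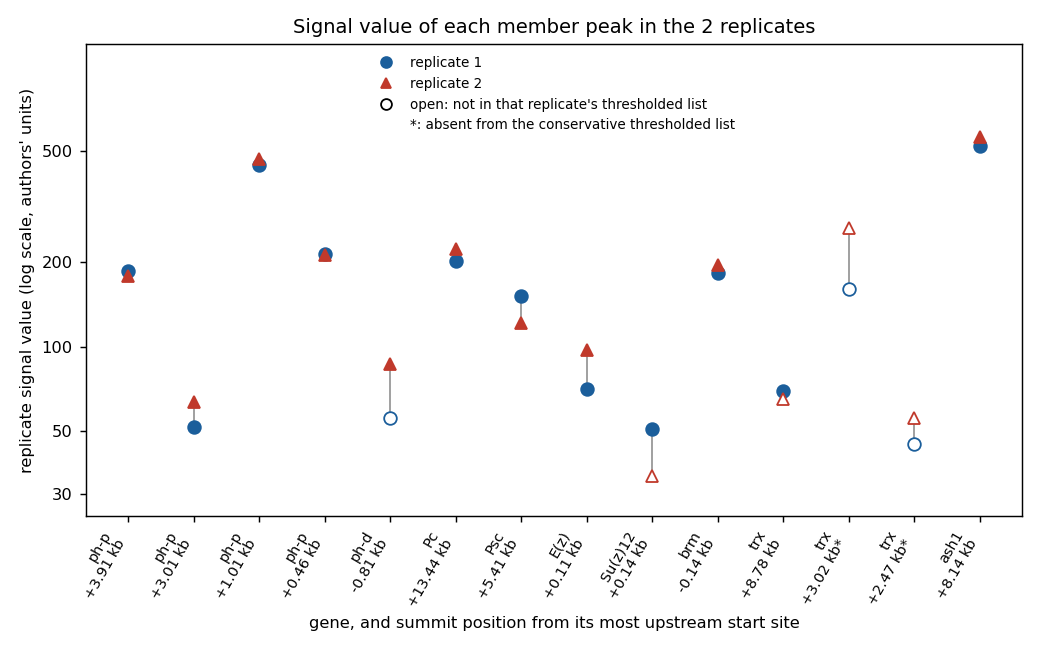
Signal value (log scale, authors' units) of each member peak in replicate 1 (circles) and replicate 2 (triangles), ordered by gene, with the 2 stronger trx peaks that the thresholded list lacks marked by an asterisk. The pairs lie close together for ash1, brm, Pc and 3 of the ph-p peaks and farther apart at ph-d, Su(z)12 and the strongest trx peak, and open symbols mark replicates whose thresholded list lacks the peak.

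Across the 12 conservative member peaks, 9 were in the thresholded lists of both replicates (75%), 2 in that of replicate 1 only and 1 in that of replicate 2 only, against 51.2% of all 3143 conservative peaks in both. These shares were not matched for peak strength, and 11 of the 12 member peaks were above the median signal value of the list. The log2 ratio of replicate 2 over replicate 1 had a median of 0.08 and an SD of 0.32 over the member peaks (-0.56 at Su(z)12 to 0.63 at ph-d), against a median of 0.08 and an SD of 0.41 over all conservative peaks with both values.

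The member peaks stood high in the list. Their median pooled signal value was 315.6 (86.18 to 1072.53), against 107 over all conservative peaks, and 11 of the 12 were above that value. There were 6 in the strongest 10% of the list, which began at 310.4: ash1, brm, Pc and 3 of ph-p. Taking the strongest peak of each gene in the conservative thresholded list, the 9 bound members had a median of 266.8, against 131.1 for the 3129 protein-coding genes with a peak. The genes were not matched for length. The values of ash1 and Pc belong to summits past the gene end, nearer to the TSS of the adjacent gene. Ordered by the strongest peak, ash1 was followed by ph-p, Pc, brm, Psc, E(z), ph-d, trx and Su(z)12, and the missing trx peak of 430.5 would place trx between ph-p and Pc. The neighbours E(z), ph-d and trx, with replicate means of 84.2 ± 19.1, 71.4 ± 21.8 and 67.6 ± 3.28, differed by less than the SD of ph-d.

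**Figure D4:**
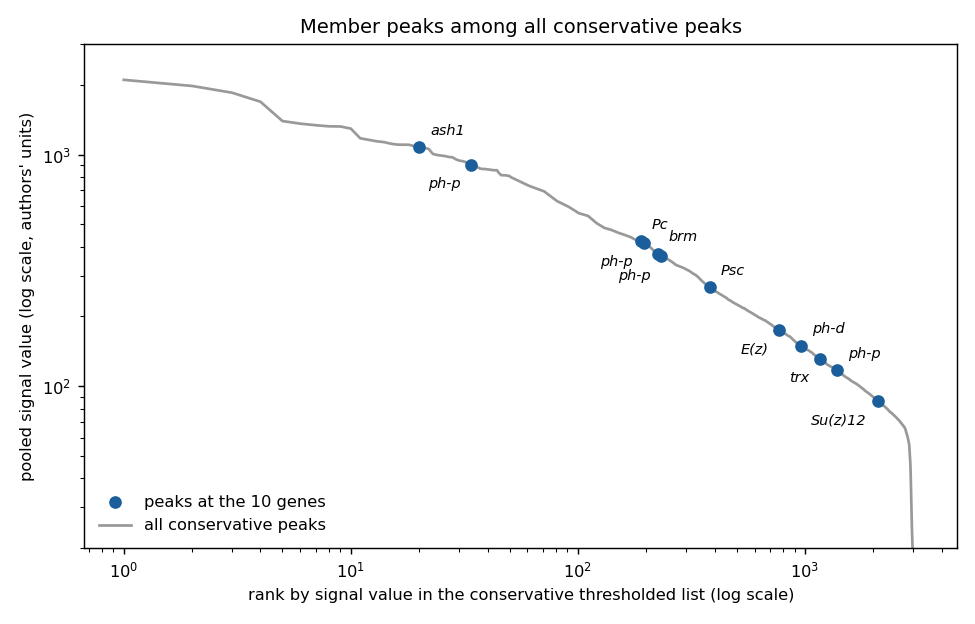
Pooled signal value against rank (both log scales) for the 12 conservative peaks at the 10 genes (points, named) and for all conservative peaks (line). ash1 at rank 20 and the strongest ph-p peak at rank 34 lie at the top, 4 peaks of ph-p, Pc and brm cluster at ranks 189 to 233, and Su(z)12 at rank 2093 is the lowest.

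By position, 6 of the 12 member summits (50%) were within 500 bp of a TSS of some gene, 5 were in introns (41.7%) and 1 was intergenic, against 41.1% at a TSS, 41.7% in introns and 13.4% intergenic among all conservative summits. A summit within 500 bp of the member's own TSS was found for 4 of the 10 genes (ph-p, E(z), Su(z)12 and brm), against 10.1% of protein-coding genes. For 9 of the 12 summits the nearest TSS belonged to the member. The exceptions were those at ash1, Pc and brm, where the neighbouring gene's TSS was nearer. The choice of the 2 kb margin mattered: inside the gene bodies alone, 5 members had a summit (ph-p, Psc, E(z), Su(z)12 and trx), against 9.22% of protein-coding genes.

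Per length, the members' windows held 8.12 conservative summits per 100 kb, against 2.72 for all protein-coding genes. Without ph-p, a calculation added after its 4 summits were seen, the members had 6.03 per 100 kb. Ranked peaks of any score were about as dense in both, 79.8 per 100 kb at the members and 76 at all protein-coding genes. Below the threshold, the strongest member peaks were 82.2 at trx, 76.1 at ph-d and 62.9 at Su(z)12.

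A wider list of 58 other Polycomb and trithorax genes, sorted by complex or role, showed a peak at 20 (34.5%) and a peak within 500 bp of the own TSS at 8 (13.8%), against the 22.4% and 10.1% of all protein-coding genes given above. Among genes within the members' range of lengths, 32% had a peak, close to the share of the wider list. Neither the wider list nor its roles were matched for gene length. No gene of the other 5 PRC1 and related genes had a conservative peak, although Kdm2, which encodes a histone demethylase, had 3 of the passing peaks that the list lacks. Among the 6 other PRC2 and accessory genes, 2 had one, and 0 had one within 500 bp of their own TSS. Caf1-55, a histone-binding subunit, had 937.1 (447 and 492 in the replicates), but that summit was 1964 bp past its end and 120 bp from the TSS of Art3. jing, a zinc finger gene, had 385.1 (179 and 203) in an intron.

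phol, the paralog of pho, had a peak of 471.9 (205 and 247), 99 bp from the TSS of CG3552 and 1532 bp from its own. Of the 2 genes of the PR-DUB deubiquitinase, calypso had 143.6 (59.6 and 65.3), 138 bp from the TSS of CG42837 and 571 bp from its own, and Asx had none. Among 8 genes for DNA-binding recruiters, 5 had a peak and 4 had one within 500 bp of their own TSS. The strongest were Dsp1, an HMG box protein, with 757.5 (377 and 333), and Trl, which encodes GAGA factor, with 553.3 (288 and 244). The Trl summit was in an intron of Trl, and the Dsp1 summit lay outside that gene, 644 bp upstream of its TSS and 632 bp from that of CG9921. None of the 5 other Polycomb group genes had one.

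In the Brahma complex 2 of the 9 other subunit genes had a peak. osa, which encodes the ARID subunit, had 507.9 (244 and 276), and Bap55, an actin-related subunit, had 93.1 (35.6 and 37.5) at the TSS of Mtap, 1672 bp past its end. In the COMPASS family of methyltransferase complexes, 2 of 9 genes had a peak, wds with 404.8 (154 and 220), 1602 bp past its end, and Rbbp5 with 69.4 (39.95 and 37.7), 94 bp from the TSS of eRF1 and 319 bp from its own. Of 12 further trithorax group genes 7 had one, led by tna with 484.4 (206 and 254) and nej, which encodes the acetyltransferase CBP, with 233.9 (113 and 116), 682 bp upstream of its TSS. mor and tara had 2 and 8 of the passing peaks that the thresholded list lacks. With Kdm2, such peaks were at 3 of the 58 other genes, against 0.566% of protein-coding genes. These genes and trx all lie on 3R, which held 54 of the 84 missing peaks.

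**Figure D5:**
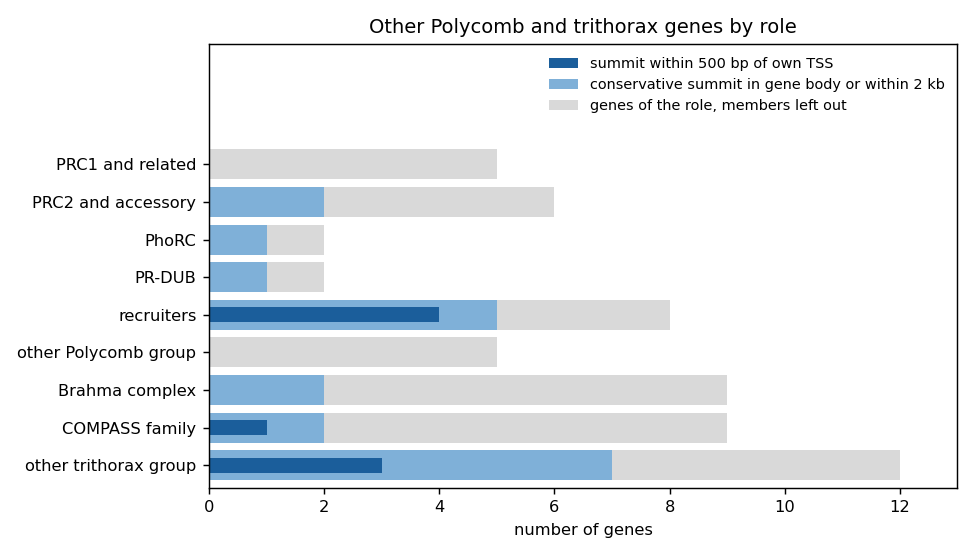
Number of other Polycomb and trithorax genes in each role (grey), of those with a conservative summit in the gene body or within 2 kb (light blue), and of those with one within 500 bp of their own TSS (dark blue). Peaks were found at 5 of 8 recruiter genes and 7 of 12 further trithorax genes. They were found at 0 of 5 other PRC1 and related genes and 0 of 5 other Polycomb group genes. The PRC1 members ph-p, ph-d, Pc and Psc, each with a peak, are not counted here. By the same rule 22.4% of all protein-coding genes had a peak, and 32% of those within the members' range of lengths. The roles hold few genes, differ in gene length and were not compared by a test.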

How the data were processed

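ChIP-seq of CG11696-eGFP embryos (2 biological replicates) was deposited by the authors as ranked and thresholded peak lists on dm6, 1 pair per replicate and conservative and optimal pairs for the series. Per the labels, chromatin was sonicated to 200 to 800 bp. The aligner and peak caller, not given in the sources used here, are unknown, and no control or read depth was used. The deposited score (0 to 1000) followed the IDR, itself deposited as its −log10, with 830 at an IDR of 0.01. The deposited signal value is the authors' peak strength, not scaled between lists. Columns of the series lists that name no sample were not used.

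Summits were placed on Ensembl release 115 genes of 7 chromosomes with Python 3.11.15, pandas 2.3.3 and numpy 2.4.6. Transposable element entries were not counted as genes. A summit within 500 bp of any TSS was classed as TSS, before exons (UTRs and coding), introns and intergenic sequence. A replicate value is the strongest overlapping peak (1 bp or more) of that replicate's ranked list. Sub-threshold peaks are ranked peaks with a score under 830 that overlap no thresholded peak. Counting windows were tested on simulated data. Named were all 10 members, the 2 genes per role of the wider list with the highest peaks, and the gene with the nearest TSS to each member summit. Other genes were chosen after their values were seen. Members, lists and rules were chosen with earlier results of these data known. Of 3154 conservative peaks, 3143 lay on the chromosomes used.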

Additional observations from a re-analysis of the deposited data

How the results depend on the processing

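The counts of members, member summits and genes of the wider list with a peak, the genome-wide shares, the overlap of replicates and the strongest value of each bound member were recomputed with other windows, lists or thresholds. Counts by motif, class, role, missing peaks and number of summits were not. Of 50 alternatives, 36 were labelled the same as the reported value and 14 as moved. The label does not measure nearness, because small counts could shift further and keep it. Member summits went from 12 to 8 with gene bodies alone, and genes of the wider list from 29 to 37 with 5 kb. Both were labelled the same, whereas 22.4 to 25.8% of protein-coding genes with the optimal list was labelled moved. The strongest value of each bound member was identical in the optimal list, which gives these peaks the same pooled values. No value was tested, so no call could be lost. With gene bodies alone, 5 members, 16 genes of the whole wider list (members included, 29 with the 2 kb margin) and 9.22% of protein-coding genes had a conservative summit. With 5 kb the genome-wide share was 33.2%, with the optimal list 25.8% and with the stronger 50% of peaks 14.2%. The share with a summit at a TSS was 7.65% within 250 bp, 12.6% within 1000 bp, 11.7% with the optimal list and 5.88% with the stronger peaks. In the list of a single replicate, leaving out the other, 8 members had a summit either way, with 11 to 12 summits in all and 3 to 4 members bound at their TSS. Then 24 to 25 genes of the wider list, 17.4 to 17.8% of protein-coding genes, and 7.4 to 7.44% at a TSS had one. trx was lost without replicate 1 and ph-d without replicate 2. With 50% reciprocal overlap 7 of the 12 member peaks, against 9, were in both replicates' lists. No paired analysis was possible because there was 1 group. Unknown depth limits what a missing peak means.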
